A study of Homo sapiens with 18 samples.

Results

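The genes described here are 10 feedback genes and readouts of the MAPK pathway, *DUSP4*, *DUSP5*, *DUSP6*, *SPRY1*, *SPRY2*, *SPRY4*, *SPRED1*, *ETV4*, *ETV5* and *PHLDA1*. They were taken by symbol from a table of 40266 gene symbols, and each was found there once. RNA had been sequenced from 2 human pancreatic ductal adenocarcinoma (PDAC) lines in 18 libraries, with 3 libraries in each of 6 groups. Panc1 was derived from a primary tumor and serves as the mesenchymal-like model, and Panc89 was derived from a lymph node metastasis and serves as the epithelial model. Each line was studied as parental cells and as a Holoclone and a Paraclone culture grown from single cells. Holoclone cells stand for cancer stem cells (CSC) and Paraclone cells for non-CSC. Every group was untreated, each Holoclone and Paraclone culture is 1 clone, and the replicates are passages. The p-values below therefore measure the spread between passages and not between independent clones.

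In the MAPK pathway, receptor tyrosine kinases activate RAS, and RAS activates the kinases RAF, MEK and ERK in turn. Active ERK raises the transcription of genes whose products switch the pathway off again, so the mRNA of such genes is widely used as a readout of pathway output. *DUSP4*, *DUSP5* and *DUSP6* encode phosphatases that remove the activating phosphates from ERK. DUSP4 and DUSP5 act in the nucleus and DUSP6 in the cytoplasm. *SPRY1*, *SPRY2*, *SPRY4* and *SPRED1* encode Sprouty-domain proteins that hold back signaling between receptor, RAS and RAF, and SPRED1 does so by bringing neurofibromin to RAS. *ETV4* and *ETV5* encode ETS transcription factors of the PEA3 group, and *PHLDA1* encodes a protein with a pleckstrin-homology-like domain that is induced by growth factors. In PDAC the pathway is known as a main driver of growth.

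Expression is given as TPM, a share of all transcripts of a library that is scaled for transcript length, so that levels of different genes can be set side by side. All comparisons were made on log2(TPM + 1) with limma-trend over the 16093 genes that reached 1 TPM in 3 or more libraries, and all 10 genes passed this filter. A change is called where the p adjusted by Benjamini-Hochberg over all genes tested is under 0.05. The table carries no counts, so the depth of the libraries is unknown and no counting error can be given. Between 12932 and 14199 genes reached 1 TPM in a library, and mitochondrially encoded genes held 5.62% to 9.44% of the TPM. *VIM* and *ZEB1*, which mark mesenchymal cells, summed to at least 2038 TPM in each Panc1 library and to no more than 3.41 TPM in Panc89. *CDH1* and *EPCAM*, which mark epithelial cells, summed to 254 TPM or more in each Panc89 library and to at most 32.3 TPM in Panc1. Keratins of carcinoma cells summed to 2515 to 5005 TPM over all libraries. Markers of leukocytes, fibroblasts and red cells summed to at most 1.91, 1.29 and 1.72 TPM in any library. The endothelial list summed to 55.2 to 69.1 TPM in parental Panc89 cells, almost all of it from *PECAM1*, and to at most 8.90 TPM in every other group. Its part in the results was not tested. In bulk RNA, fewer cells that express a gene and less RNA of it per cell cannot be told apart.

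**Figure D1:**
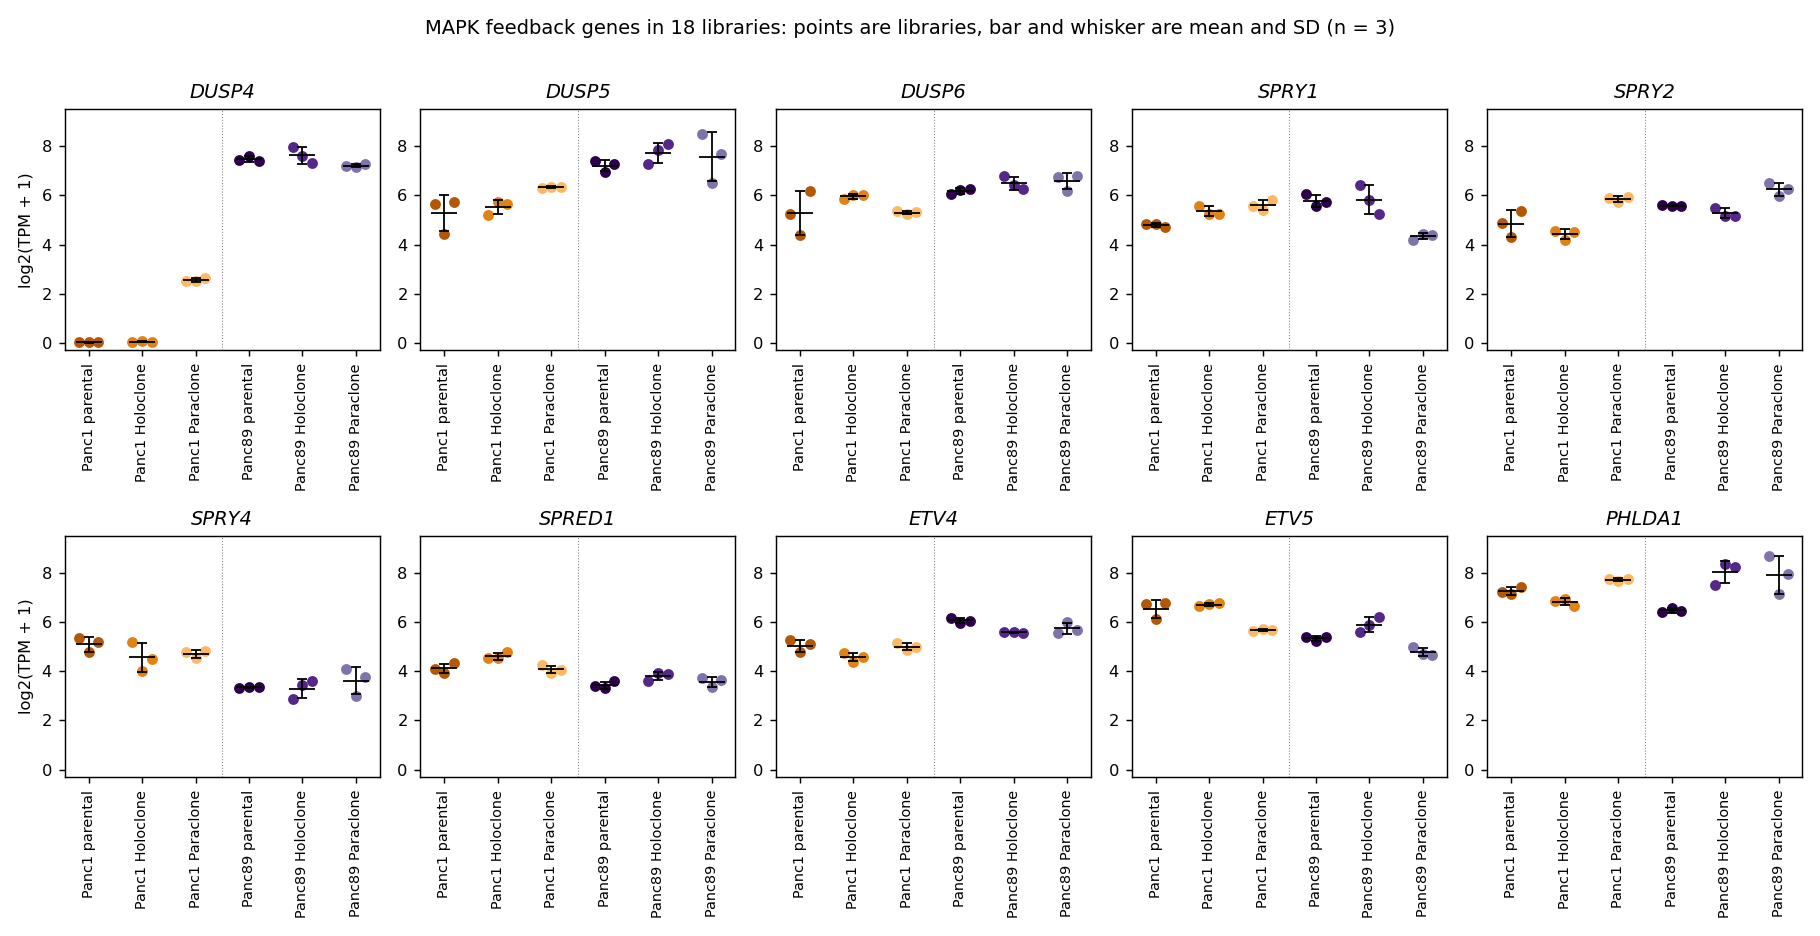
Level of each of the 10 genes in the 18 libraries. Each point is 1 library on the log2(TPM + 1) axis, the bars are group means, and the groups stand in the order parental, Holoclone and Paraclone for Panc1 and then Panc89. *DUSP4* runs from 0.0192 TPM in a parental Panc1 library to 249 TPM in a Panc89 Holoclone library, while *DUSP6* stays between 19.8 and 110 TPM.

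Among the phosphatases, *DUSP4* separated the lines more than any other of the 10 genes. In the parental cells *DUSP4* was at 0.0227, 0.0428 and 0.0192 TPM in Panc1 and at 171, 195 and 167 TPM in Panc89. In Holoclone cells it was at 0.0431, 0.0511 and 0.0378 TPM in Panc1 and at 249, 192 and 157 TPM in Panc89. In Paraclone cells it was at 4.73, 4.73 and 5.32 TPM in Panc1 and at 146, 142 and 153 TPM in Panc89. Every Panc89 library lay far above every Panc1 library, and within Panc1 the Paraclone libraries alone reached 1 TPM. *DUSP4* lies on chromosome 8 of GRCh38 (29333064 to 29350684). The 10 tested genes nearest to it, all within 805144 bases, were also read, a choice made after the *DUSP4* values were seen. In parental Panc1 cells 7 of these 10 neighbours had a mean of 1 TPM or more. Only genes past the filter on low values were taken as neighbours. The count is thus partly set by that filter and does not describe the region as a whole. Their median log2 fold change for parental Panc89 against parental Panc1 was 0.96, with a range from −0.60 to 3.35. Over all genes tested the median was −0.18. The low end of the range was *EXTL3-AS1*, and the high end was *KIF13B*, the nearest neighbour at 69940 bases. *KIF13B* averaged 0.626, 0.607 and 0.0771 TPM in parental, Holoclone and Paraclone Panc1 cells. In Panc89 its means were 15.5, 7.30 and 19.6 TPM in the same order. Whether *DUSP4* shares its low Panc1 level with the region was not tested.

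*DUSP5* (chromosome 10, 110497907 to 110511533) had a higher mean in each Panc89 group than in any Panc1 group. Its Panc1 libraries ran from 20.6 to 80.5 TPM and its Panc89 libraries from 90.3 to 359 TPM, without overlap. The spread within groups was wide in Panc89, where the 3 Paraclone libraries held 359, 90.3 and 205 TPM. *DUSP6* (chromosome 12, 89347235 to 89352501) varied least with the line among the phosphatases. It was at 37.3, 19.8 and 70.8 TPM in parental Panc1 cells, a spread that reaches the 64.7 to 74.7 TPM of the parental Panc89 cells. The 3 Panc1 Holoclone libraries held 56.8 to 64.4 TPM and the 3 Paraclone libraries 36.3 to 40.3 TPM. In Panc89 the clones shared one range, from 71.9 to 110 TPM. Residual SDs on the log2 scale were 0.55 for *DUSP5* and 0.41 for *DUSP6*, against a median of 0.23 over all genes tested.

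The Sprouty genes *SPRY1* and *SPRY2* are close relatives, and in Panc89 the clones held them in opposite order. Windows of 250 bases upstream of their first annotated starts (RefSeq, GRCh38.p14) are shown with that of *PHLDA1*, since these are the 3 genes for which the cell variants took a larger share of the variation than the line did. The windows are at chr4:123396545-123396794 on the plus strand for *SPRY1*, chr13:80341127-80341376 on the minus strand for *SPRY2* and chr12:76031777-76032026 on the minus strand for *PHLDA1*. Each is written 5′ to 3′ along its gene, and capitals mark the ETS core CCGGAA or, on the other strand, TTCCGG.
SPRY1: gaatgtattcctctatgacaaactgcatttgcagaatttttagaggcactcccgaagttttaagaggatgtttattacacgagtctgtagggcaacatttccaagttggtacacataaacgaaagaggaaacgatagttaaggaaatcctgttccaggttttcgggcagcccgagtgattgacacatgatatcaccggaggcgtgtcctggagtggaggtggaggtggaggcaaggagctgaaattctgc
SPRY2: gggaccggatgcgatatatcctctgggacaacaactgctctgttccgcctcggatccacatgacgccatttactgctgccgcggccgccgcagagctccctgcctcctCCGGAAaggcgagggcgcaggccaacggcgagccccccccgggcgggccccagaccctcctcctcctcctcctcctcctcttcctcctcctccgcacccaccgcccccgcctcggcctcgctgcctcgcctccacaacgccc
PHLDA1: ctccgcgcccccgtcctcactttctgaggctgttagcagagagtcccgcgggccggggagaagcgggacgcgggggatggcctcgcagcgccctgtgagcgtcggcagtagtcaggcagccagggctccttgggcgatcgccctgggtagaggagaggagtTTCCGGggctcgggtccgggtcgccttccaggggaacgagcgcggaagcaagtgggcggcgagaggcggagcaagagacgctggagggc

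The *SPRY2* and *PHLDA1* windows hold 1 ETS core each, and the *SPRY1* window shown holds none. Over all genes of the same table, 14.5% of 35116 such windows hold the core. Neither the AP-1 motif TGANTCA nor the CRE motif TGACGTCA was in any of the 9 windows found for 6 of the 10 genes, and these motifs are in 6.57% and 1.65% of all windows. The ETS core was in 3 of the 9, the third being the window of a second *SPRY1* start, which is not shown. Both strands were searched, and no match overlapped another. A match of letters is not a binding site.

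*SPRY1* was at 27.3, 27.8 and 25.0 TPM in parental Panc1, at 46.8, 37.1 and 36.5 TPM in Panc1 Holoclone and at 46.1, 41.4 and 55.4 TPM in Panc1 Paraclone cells. In Panc89 it was at 65.6, 46.1 and 51.7 TPM in parental, at 83.6, 55.7 and 36.3 TPM in Holoclone and at 17.3, 20.8 and 19.9 TPM in Paraclone cells. The Panc89 Paraclone libraries were thus the lowest of all 18, while both Panc1 clones lay above their parental cells. *SPRY2* was at 28.7, 18.6 and 40.2 TPM in parental Panc1, at 22.6, 17.4 and 21.6 TPM in Panc1 Holoclone and at 58.5, 52.0 and 60.4 TPM in Panc1 Paraclone cells. In Panc89 it was at 47.2, 46.4 and 47.0 TPM in parental, at 44.4, 34.4 and 34.8 TPM in Holoclone and at 89.4, 62.0 and 75.8 TPM in Paraclone cells. In both lines the *SPRY2* libraries of the Paraclone lay above all others of that line, and the Holoclone had the lowest mean.

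*SPRY4* (chromosome 5, 142310427 to 142326455) was higher in Panc1, with 15.2 to 39.6 TPM, than in Panc89, with 6.25 to 16.0 TPM. Within either line the ranges of the 3 cell variants overlapped. *SPRED1* (chromosome 15, 38252836 to 38357249) was at 14.2 to 26.5 TPM in Panc1 and at 9.01 to 14.1 TPM in Panc89. Its highest 3 libraries were those of the Panc1 Holoclone.

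The 2 ETS factors went in opposite directions between the lines. *ETV4* (chromosome 17, 43527844 to 43579620) was at 19.9 to 37.0 TPM in Panc1 and at 45.6 to 70.2 TPM in Panc89. *ETV5* (chromosome 3, 186046314 to 186110318) was at 104, 68.0 and 107 TPM in parental Panc1, at 98.3, 105 and 107 TPM in Panc1 Holoclone and at 48.7, 51.7 and 49.4 TPM in Panc1 Paraclone cells. In Panc89 it was at 40.6, 36.2 and 41.2 TPM in parental, at 47.3, 57.7 and 72.3 TPM in Holoclone and at 30.4, 25.3 and 24.5 TPM in Paraclone cells. The Paraclone was thus the lowest variant for *ETV5* in both lines, and within each variant every Panc89 library lay under every Panc1 library. *ETV5* overlaps *DGKG* on the same strand, and *ETV4* overlaps *DHX8* on the opposite strand. The library kit kept the strand, but strand cannot tell *ETV5* from *DGKG*. The methods of the study do not say whether the quantification used the strand.

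*PHLDA1* (chromosome 12, 76025447 to 76031776) was at 149, 139 and 172 TPM in parental Panc1, at 115, 121 and 99.9 TPM in Panc1 Holoclone and at 213, 200 and 213 TPM in Panc1 Paraclone cells. In Panc89 it was at 83.6, 94.5 and 85.5 TPM in parental, at 180, 324 and 298 TPM in Holoclone and at 405, 140 and 246 TPM in Paraclone cells. The parental Panc89 libraries were the lowest of all 18, and both Panc89 clones lay above them without overlap. The libraries of a Panc89 clone differed from each other more than those of any Panc1 group. Among rows with related names, the pseudogene *DUSP5P1* reached at most 2.33 TPM in any library. The antisense transcripts *PHLDA1-AS1* and *SPRY4-AS1* reached 2.60 and 7.56 TPM, and the divergent transcripts *DUSP5-DT* and *PHLDA1-DT* 14.7 and 5.61 TPM. The highest *SPRY4-AS1* value is within the range of *SPRY4* itself in Panc89.

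How much of each gene's variation went with the line was computed by splitting its sum of squares over the 18 libraries. The line held 93.6% of the variation of *DUSP4*, 77.7% of *ETV4*, 77.3% of *SPRY4*, 70.8% of *DUSP5* and 64.0% of *SPRED1*. At the other end it held 0.304% for *SPRY1* and 2.53% for *PHLDA1*. For these 2 genes the differences among the Panc89 variants took 67.2% and 59.4%. *SPRY2* was the gene with the largest share among the Panc1 variants, 42.8%. *ETV5* was divided between the line with 50.0% and the variants of Panc1 and Panc89 with 21.9% and 21.7%. The share between replicates ranged from 0.132% for *DUSP4* to 29.6% for *DUSP6*.

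**Figure D2:**
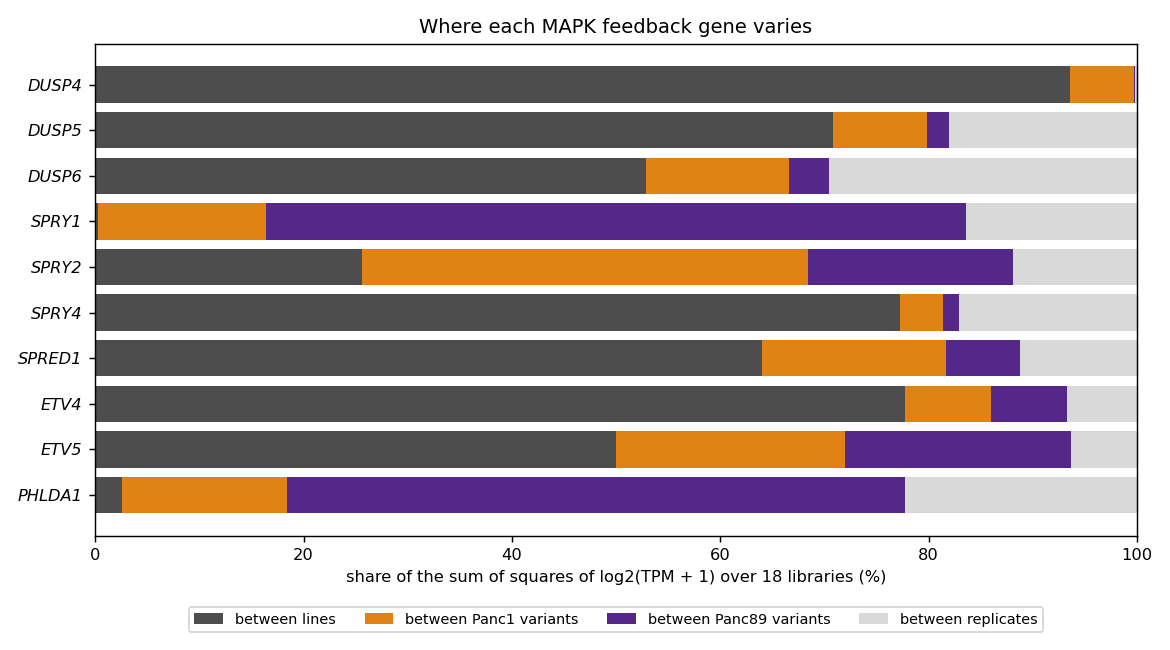
Division of the variation of each gene over the 18 libraries. Each bar adds up to the whole sum of squares of log2(TPM + 1), split into the line, the cell variants within Panc1, the cell variants within Panc89 and the replicates. The line takes 93.6% for *DUSP4* and 0.304% for *SPRY1*.

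The first comparison asked how the epithelial line differed from the mesenchymal-like line. Between parental cells all 10 genes were called, 6 higher and 4 lower in Panc89, where 66% of all genes tested were called. *DUSP4*, *DUSP5*, *DUSP6*, *SPRY1*, *SPRY2* and *ETV4* were higher, and *SPRY4*, *SPRED1*, *ETV5* and *PHLDA1* were lower. Their log2 fold changes had a median of 0.82, and those of all genes tested had a median of −0.18. The phosphatases among the 10 genes thus all moved one way, and the Sprouty-domain and ETS genes divided within their families.

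*DUSP4* changed by 7.44 ± 0.13 on the log2 scale (SE, n = 3 per group; adjusted p = 7.20e-16). With parental Panc1 at no more than 0.0428 TPM, the 1 added to each TPM holds this value down. The ratio of mean TPM for *DUSP4* was 6285 and rests on Panc1 levels near 0. The ratio of mean TPM was 3.62 for *DUSP5*, 2.04 for *SPRY1*, 2.04 for *ETV4* and 1.61 for *SPRY2*, with adjusted p between 9.30e-06 and 0.00623. On the other side, *SPRY4* fell by 1.74 on the log2 scale (SE 0.30; adjusted p = 8.36e-05) and *ETV5* decreased by 1.19 (SE 0.17; adjusted p = 1.14e-05). *SPRED1* fell by 0.68 on the log2 scale (SE 0.15; adjusted p = 0.000722). *DUSP6* overlapped between the groups, and its log2 fold change of 0.90 (adjusted p = 0.0164) became 0.46 (adjusted p = 0.101) without Panc1 parental replicate 2. With the parental groups fitted alone, its adjusted p was also 0.101. *PHLDA1* stood at −0.79 (adjusted p = 0.0208) and lost its call under upper quartile scaling (adjusted p = 0.0872) and median-of-ratios scaling (adjusted p = 0.147). It also lost it without any one of 3 parental libraries, Panc1 replicate 3 (adjusted p = 0.0687), Panc89 replicate 1 (adjusted p = 0.0552) or Panc89 replicate 3 (adjusted p = 0.0509).

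The same question was put to the clones. Between Holoclone cells 8 of the 10 genes were called, 5 higher and 3 lower in Panc89, with 65.8% of all genes tested called. Between Paraclone cells 8 were called, 4 higher and 4 lower, with 60.7% of all genes called. *DUSP4*, *DUSP5* and *ETV4* were called higher in Panc89 in all 3 comparisons of the lines, and *SPRY4*, *SPRED1* and *ETV5* were called lower in all 3. The remaining 4 genes were not called the same way in all 3. How many of all genes tested were called alike in all 3 was not counted. Such calls therefore do not set these genes apart from other genes. *PHLDA1* was lower in Panc89 among parental cells, higher among Holoclone cells (log2 fold change 1.21 ± 0.28, SE; adjusted p = 0.00131) and not called among Paraclone cells (0.20, 95% interval −0.39 to 0.80; adjusted p = 0.55). *SPRY1* had a log2 fold change of 0.99 among parental cells (adjusted p = 0.00111), of 0.46 among Holoclone cells (95% interval −0.01 to 0.94; adjusted p = 0.0816) and of −1.25 among Paraclone cells (adjusted p = 0.000159). *DUSP6* was called higher in Panc89 among Paraclone cells (1.27 ± 0.31, SE; adjusted p = 0.00198) and not among Holoclone cells (0.52, 95% interval −0.13 to 1.17). *SPRY2* was called higher among Holoclone cells (0.85 ± 0.21, SE; adjusted p = 0.00218) and not among Paraclone cells (0.39, 95% interval −0.05 to 0.84).

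Some of these calls depended on a library or a setting. *DUSP5* among Paraclone cells went from a log2 fold change of 1.23 (adjusted p = 0.0153) to 0.77 (adjusted p = 0.0974) without Panc89 Paraclone replicate 1, and to an adjusted p of 0.0692 in a fit of the Paraclone libraries alone. *SPRY1* became called among Holoclone cells without Panc89 Holoclone replicate 3 (0.76, adjusted p = 0.00285) and under upper quartile (adjusted p = 0.0222) and median-of-ratios scaling (adjusted p = 0.00842). *DUSP6* became called there in a fit of the Holoclone libraries alone (adjusted p = 0.0255), and *PHLDA1* among Paraclone cells without Panc89 Paraclone replicate 2 (0.59, adjusted p = 0.0331).

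**Figure D3:**
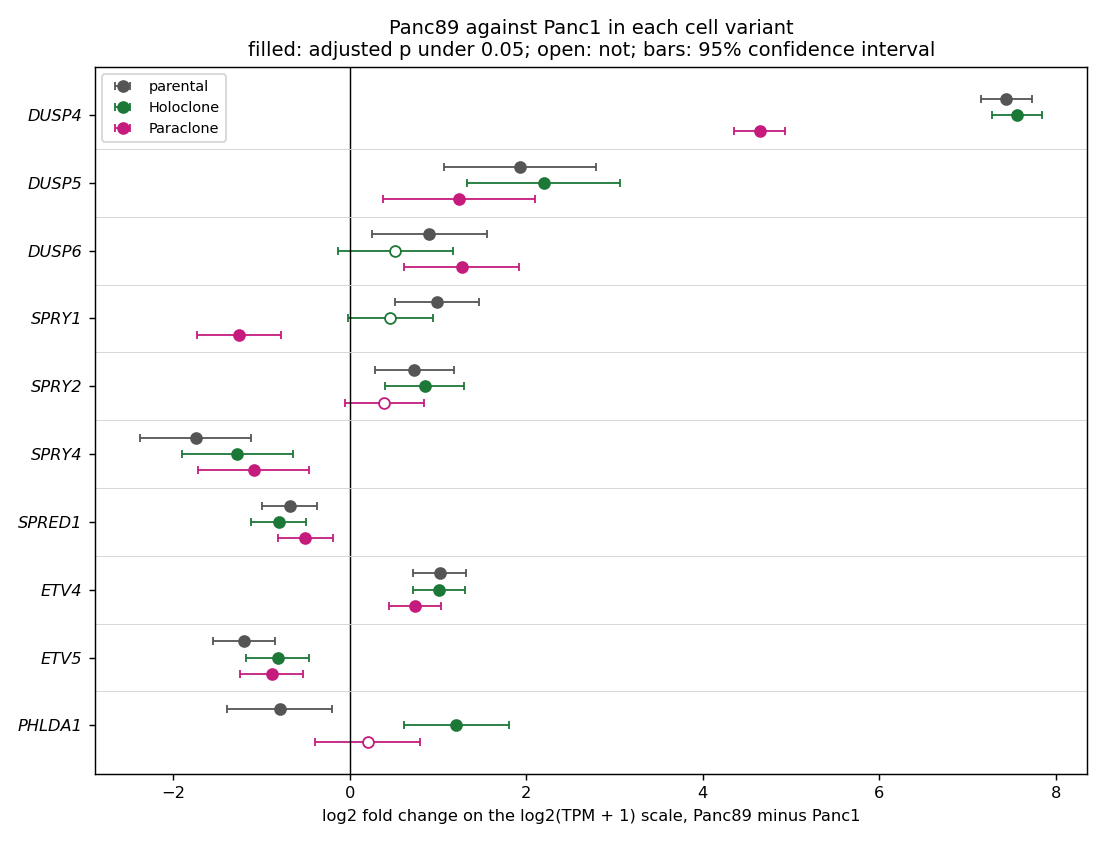
Log2 fold change of the 10 genes for Panc89 against Panc1, with 1 marker each for parental, Holoclone and Paraclone cells. The horizontal axis is on the log2(TPM + 1) scale, bars are 95% confidence intervals, and filled markers have an adjusted p under 0.05. *DUSP4* stands at 7.44, 7.56 and 4.64, and *PHLDA1* and *SPRY1* lie on both sides of 0.

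The next comparison, Holoclone against Paraclone cells, set the CSC model of each line against its non-CSC model. In Panc1, 6 of the 10 genes were called, 2 higher and 4 lower in the Holoclone, where 37.3% of all genes tested were called. *ETV5* and *SPRED1* were higher, and *DUSP4*, *SPRY2*, *ETV4* and *PHLDA1* were lower. The 10 log2 fold changes had a median of −0.33, and those of all genes tested a median of 0.19.

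In Panc1, *DUSP4* had a log2 fold change of −2.50 (SE 0.13, n = 3 per group; adjusted p = 1.30e-09), from a mean of 4.93 TPM in the Paraclone to 0.0440 TPM in the Holoclone. The size of this change is also held down by the 1 added to each TPM. *SPRY2* fell by 1.43 on the log2 scale (SE 0.21; adjusted p = 7.24e-05), with a Holoclone mean of 20.5 TPM and a Paraclone mean of 56.9 TPM. *ETV5* was 2.07 times higher in mean TPM in the Holoclone (log2 fold change 1.03 ± 0.17, SE; adjusted p = 0.000168). *SPRED1* had a log2 fold change of 0.54 (adjusted p = 0.00864), *ETV4* of −0.43 (adjusted p = 0.0239) and *PHLDA1* of −0.90 (adjusted p = 0.0190). *DUSP5* and *DUSP6* did not overlap between these groups but were not called, with log2 fold changes of −0.80 (95% interval −1.66 to 0.06; adjusted p = 0.138) and 0.67 (95% interval 0.02 to 1.32; adjusted p = 0.1004). In a fit of these 6 libraries alone both were called, with adjusted p of 0.0108 and 0.00259.

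*SPRED1* lost its call in Panc1 under upper quartile and median-of-ratios scaling (adjusted p = 0.173 and 0.271). *ETV4* lost it without Holoclone replicate 2 or 3 or Paraclone replicate 1 or 3 (adjusted p from 0.0553 to 0.102), and *PHLDA1* without Holoclone replicate 3 (adjusted p = 0.0683) or Paraclone replicate 3 (adjusted p = 0.0504).

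In Panc89, 4 of the 10 genes were called between the clones, 3 higher and 1 lower in the Holoclone, where 35.7% of all genes tested were called. The 10 log2 fold changes had a median of 0.13, against 0.09 over all genes. *SPRY1*, *ETV5* and *DUSP4* were higher and *SPRY2* was lower. *SPRY1* was 3.03 times higher in mean TPM (log2 fold change 1.48 ± 0.22, SE, n = 3 per group; adjusted p = 0.000105). *ETV5* was 2.21 times higher (1.10 ± 0.17, SE; adjusted p = 9.98e-05), and *SPRY2* fell by 0.98 on the log2 scale (SE 0.21; adjusted p = 0.00188), from a mean of 75.7 TPM in the Paraclone to 37.8 TPM in the Holoclone. *DUSP4* had a log2 fold change of 0.41 (adjusted p = 0.0246). Its call was lost without Holoclone replicate 1 or 2 or Paraclone replicate 1 or 2 (adjusted p from 0.0546 to 0.113), in a fit of the 6 libraries alone (0.158) and under upper quartile (0.0795) and median-of-ratios scaling (0.0992).

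*SPRY2* and *ETV5* were thus called in both lines, *SPRY2* lower and *ETV5* higher in the Holoclone, without overlap of the groups. The share of all genes tested that was called in the same direction in both lines was not counted. These calls therefore do not set *SPRY2* and *ETV5* apart from other genes. Both kept their calls in Panc1 and in Panc89 with any one of the libraries compared left out. The other 6 genes in Panc89 had intervals that included 0, such as *PHLDA1* with a log2 fold change of 0.11 (95% interval −0.49 to 0.70) and *DUSP5* with 0.16 (95% interval −0.70 to 1.02).

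**Figure D4:**
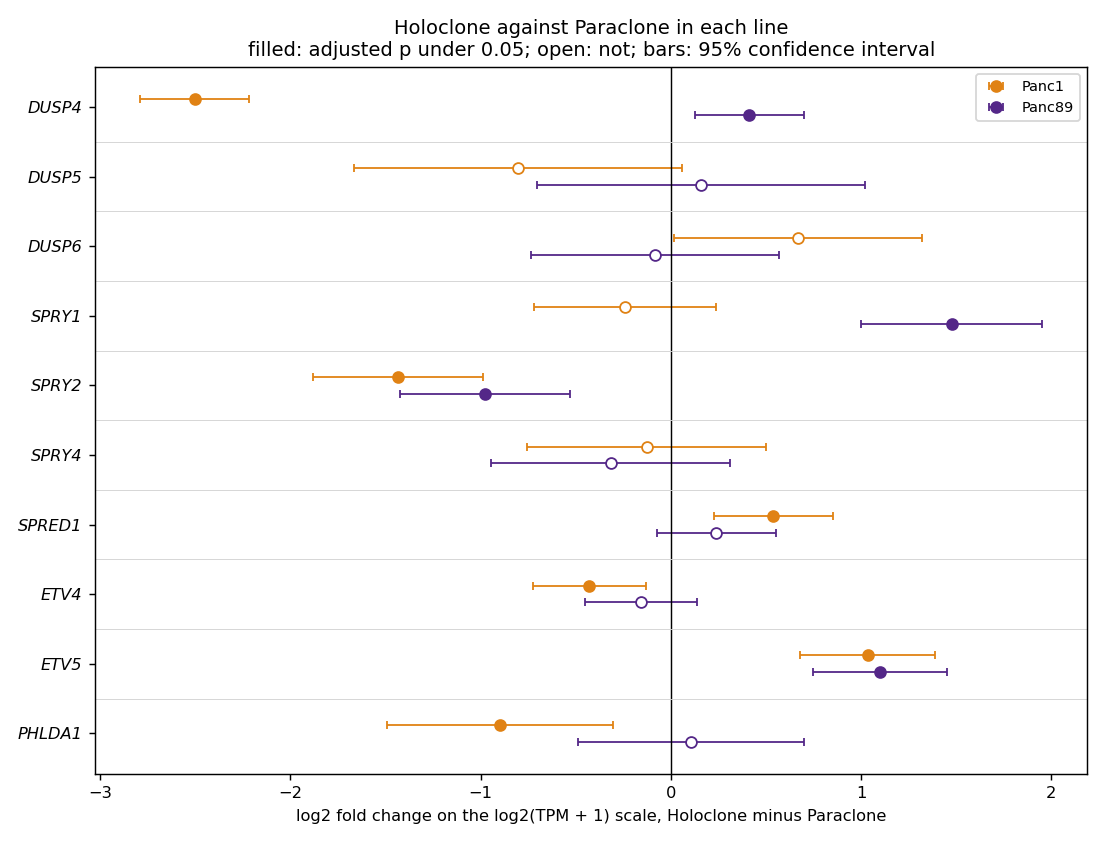
Log2 fold change of the 10 genes for Holoclone against Paraclone cells in Panc1 and in Panc89. The horizontal axis is on the log2(TPM + 1) scale, bars are 95% confidence intervals, and filled markers have an adjusted p under 0.05. *SPRY2* lies under 0 and *ETV5* above 0 in both lines, and *DUSP4* stands at −2.50 in Panc1 and 0.41 in Panc89.

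Whether the clones differed in unlike ways in the 2 lines was tested as an interaction, the Panc89 change minus the Panc1 change. It was called for 2 of the 10 genes, with 35.1% of all genes tested called. *DUSP4* had an interaction of 2.92 ± 0.19 (SE; adjusted p = 2.02e-08) and *SPRY1* of 1.72 ± 0.32 (SE; adjusted p = 0.000609) on the log2 scale. The *DUSP4* value includes its Panc1 change, whose size is held down by the 1 added to each TPM. *SPRY1* was 3.03 times higher in the Holoclone in Panc89 and had a ratio of 0.842 in Panc1. For *ETV5* the interaction was 0.07 (95% interval −0.43 to 0.57) and for *SPRY2* 0.46 (95% interval −0.18 to 1.09). *PHLDA1* had 1.00 (95% interval 0.16 to 1.84; adjusted p = 0.0608), and it was called without Panc89 Holoclone replicate 1 (1.26, adjusted p = 0.0170) or Panc89 Paraclone replicate 1 (1.38, adjusted p = 0.00393). *DUSP5* was called without Panc89 Paraclone replicate 1 (1.43, adjusted p = 0.0445), and *DUSP6* in a fit without the parental libraries (−0.75, adjusted p = 0.0388).

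Each clone was also compared with its parental cells, and the 2 clones of a line share those control libraries. In Panc1 the Holoclone had 2 genes called, *SPRED1* higher and *ETV4* lower, with 10.9% of all genes called. The *SPRED1* call (0.50, adjusted p = 0.0377) was lost without parental replicate 1 or 2 or any one Holoclone replicate (adjusted p from 0.0566 to 0.176), and the *ETV4* call (−0.48, adjusted p = 0.0374) without parental replicate 1 or 3 or Holoclone replicate 2 or 3 (0.103 to 0.161). Without Panc1 parental replicate 3, *DUSP6* was called higher (1.15, adjusted p = 0.00632). The Panc1 Paraclone had 4 genes called, *DUSP4*, *SPRY1* and *SPRY2* higher and *ETV5* lower, with 28.6% of all genes called. Its log2 fold changes were 2.53 for *DUSP4* (adjusted p = 2.19e-09), 1.00 for *SPRY2* (adjusted p = 0.00228), 0.80 for *SPRY1* (adjusted p = 0.0144) and −0.86 for *ETV5* (adjusted p = 0.00131). The *SPRY1* call was lost without Panc1 Paraclone replicate 3 (0.69, adjusted p = 0.0622), and the *SPRY2* call in a fit of the 6 libraries alone (adjusted p = 0.0546). *DUSP5* (1.06, adjusted p = 0.0630) became called under upper quartile (adjusted p = 0.0488) and median-of-ratios scaling (adjusted p = 0.0442), and *PHLDA1* (0.45, adjusted p = 0.255) in a fit of the 6 libraries alone (adjusted p = 0.0261).

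In Panc89 the Holoclone had 3 genes called against parental cells, *PHLDA1* and *ETV5* higher and *ETV4* lower, with 24.7% of all genes called. The Paraclone had 4 called, *PHLDA1* and *SPRY2* higher and *SPRY1* and *ETV5* lower, with 19.4% of all genes called. *PHLDA1* was 3.04 times higher in mean TPM in the Holoclone (log2 fold change 1.55 ± 0.28, SE; adjusted p = 0.000714) and 3.00 times higher in the Paraclone (1.45 ± 0.28, SE; adjusted p = 0.00162). *SPRY1* in the Paraclone fell by 1.44 on the log2 scale (SE 0.22; adjusted p = 0.000286). The *PHLDA1* changes and the *SPRY1* change were called in every fit that left out 1 library, but the *PHLDA1* call of the Paraclone was lost in a fit of the 6 libraries alone (adjusted p = 0.0613).

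The remaining Panc89 calls were closer to the threshold, with adjusted p between 0.0191 and 0.0359. In the Holoclone, *ETV4* (−0.48) lost its call without parental replicate 1 or 3 or Holoclone replicate 3 (adjusted p from 0.0519 to 0.0759), and *ETV5* (0.56) without parental replicate 1 or 2 or Holoclone replicate 2 or 3 (0.0505 to 0.117). In the Paraclone, *SPRY2* (0.67) lost it without any one parental replicate or Paraclone replicate 1 or 3 (0.0807 to 0.155), and *ETV5* (−0.54) without parental replicate 1 or 3 or Paraclone replicate 2 or 3 (0.0599 to 0.111). *ETV5* also lost both calls under upper quartile and median-of-ratios scaling (adjusted p from 0.0525 to 0.108). Without Holoclone replicate 1, *SPRED1* was called higher in the Holoclone (0.48, adjusted p = 0.0350), and without Paraclone replicate 2, *ETV4* was called lower in the Paraclone (−0.45, adjusted p = 0.0297). *ETV5* stood above the parental mean in the Holoclone (59.1 against 39.4 TPM) and under it in the Paraclone (26.7 TPM).

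Several libraries were low or high for many of the 10 genes at once. Panc1 parental replicate 2 was the lowest of its group for 8 of the 10, with a median deviation of −0.30 from the group mean on the log2 scale and of 0.01 over all genes. In the same library *EGR1*, an immediate early gene of the ERK pathway, was at 2.71 TPM, against 19.4 and 375 TPM in replicates 1 and 3. *FOS*, another immediate early gene, was at 7.94 TPM there, against 10.6 and 129 TPM. Panc1 Paraclone replicate 2 was also the lowest for 8, with a median deviation of −0.10 (−0.02 over all genes). Panc89 Paraclone replicate 2 was the lowest of its group for 7 of the 10, with a median deviation of −0.25 (0.05 over all genes). Panc89 parental replicate 2 was the lowest of its group for 6 of the 10, with a median deviation of −0.05 (−0.05 over all genes). Panc1 parental replicate 3 and Panc89 Paraclone replicate 1 were the highest of their groups for 6 genes each. Their median deviations were 0.19 and 0.17, against −0.04 and −0.02 over all genes. Without Panc1 parental replicate 2, *SPRY2* was called lower in Panc1 Holoclone than in parental cells (−0.71, adjusted p = 0.0219). The part of such shifts in the results was not tested.

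The levels of the 10 genes were correlated with each other over the 18 libraries after the mean of each line had been subtracted. These coefficients are descriptions over libraries that share a culture in groups of 3. The highest was 0.69 for *DUSP6* and *SPRED1*, followed by 0.67 for *DUSP5* and *PHLDA1* and 0.65 for *DUSP4* and *SPRY2*. The most negative was −0.77 for *SPRY2* and *ETV5*, followed by −0.65 for *SPRED1* and *ETV4*. Within the 9 libraries of each line, *DUSP4* and *SPRY2* had 0.87 in Panc1 and −0.53 in Panc89, so their sign changed between the lines. The other 4 of these pairs had the same sign in Panc1 and Panc89, with 0.81 and 0.40 for *DUSP6* and *SPRED1*, 0.63 and 0.76 for *DUSP5* and *PHLDA1*, −0.72 and −0.87 for *SPRY2* and *ETV5*, and −0.55 and −0.81 for *SPRED1* and *ETV4*.

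**Figure D5:**
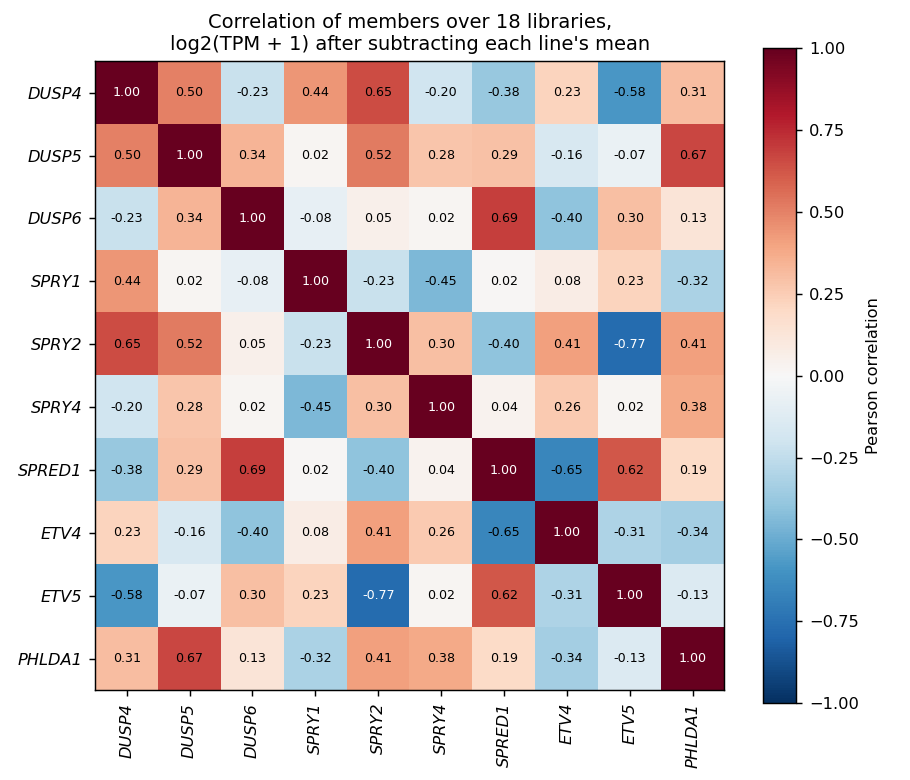
Pearson correlation of the 10 genes with each other over the 18 libraries, on log2(TPM + 1) after subtracting the mean of each line. Each cell holds 1 pair, from blue (negative) to red (positive). *SPRY2* and *ETV5* have −0.77 and *DUSP6* and *SPRED1* 0.69.

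By the same measure, each of the 10 genes was set against the 10905 genes with a mean of 10 TPM or more in some group and the nearest was read off. The highest coefficients were 0.98 between *DUSP4* and *CDH3*, which encodes P-cadherin, 0.97 between *ETV5* and *SLC35G2*, and 0.96 between *SPRY1* and *HIP1*. *SPRY2* was nearest to *STC1* (0.93), *PHLDA1* to *CD58* (0.91) and *SPRED1* to *PAWR* (0.90). *ETV4* was nearest to *STING1* (0.85), *SPRY4* to *LRRC41* (0.84) and *DUSP5* to *ZDHHC9* (0.83).

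The counts for this list and for the lists below stand beside the shares of all genes tested that were called. Those shares were 66% between parental cells, 37.3% between the Panc1 clones and 35.7% between the Panc89 clones. Among all genes called, 41.6% were higher in parental Panc89, 73.3% in the Panc1 Holoclone and 62.8% in the Panc89 Holoclone. Under upper quartile scaling 51.3% were higher in the Panc1 Holoclone and 52.5% in the Panc89 Holoclone. Median-of-ratios scaling gave 46.8% and 49.1%. Of 18 other feedback genes and relatives of the 10, 6 were called higher and 6 lower in parental Panc89 than in parental Panc1 cells, with a median log2 fold change of 0.13 against −0.18 over all genes. *DUSP10*, *DUSP2* and *DUSP9*, which encode further MAPK phosphatases, had log2 fold changes of 2.81, 2.68 and −2.38, and *PHLDA2* had −1.22. Between the Panc1 clones 4 of the 18 were higher and 8 lower in the Holoclone (median −0.06 against 0.19), with *DUSP9* at 0.82, *SPRED2* at 0.62, *IER3* at −1.60 and *PHLDA2* at −1.78. Under upper quartile and median-of-ratios scaling 1 was higher and 8 were lower, and *DUSP9* and *SPRED2* were not called (adjusted p from 0.0637 to 0.119). In Panc89 5 were higher and 2 lower (median 0.39 against 0.09), with *DUSP2* at 1.06, *CCND1* at 0.55, *EPHA2* at −0.96 and *PHLDA3* at −0.99. Under both scalings 2 were higher and 2 lower, without *CCND1* (adjusted p = 0.0503 and 0.0666), and with the clones fitted alone 3 were higher and 2 lower.

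Immediate early genes are induced within a short time of a stimulus, and ERK is among several signals that can induce them. Of 13 early response genes listed as induced by ERK, 8 were called higher and 3 lower in parental Panc89 than in parental Panc1 cells. Their median log2 fold change was 1.40 against −0.18 over all genes. The changes were 3.67 for *FOS* and 3.52 for *EGR1*, −2.17 for *ZFP36* and −2.69 for *FOSL1*. *EGR1* overlapped between the groups, since parental Panc1 replicate 3, with 375 TPM, lay within the 305 to 397 TPM of parental Panc89 cells. With the parental groups fitted alone, 5 of the 13 were higher and 3 lower, and *EGR1* was not called (adjusted p = 0.0882). Between the Panc1 clones limma-trend called 0 of the 13, with 1 at an unadjusted p under 0.05, and 1 was called in a fit of those libraries alone. Their median was 0.06 against 0.19 over all genes. In Panc89 3 were higher in the Holoclone, among them *EGR2* with 2.88 and *FOSL2* with 1.01, and 1 was lower, *KLF6* with −1.76 (median 0.40 against 0.09). With the Panc89 clones fitted alone, 5 were higher and 1 lower.

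Of 24 genes for the cascade from adaptor proteins to ERK, 8 were called higher and 12 lower in parental Panc89 cells, and 9 higher and 9 lower under median-of-ratios scaling. Their median was −0.29, against −0.18 over all genes. *CNKSR1*, a scaffold, had a log2 fold change of 1.41, *PEBP1*, an inhibitor of RAF, of 0.98, the scaffold *SHOC2* of −1.50 and the adaptor *SHC1* of −1.87. In Panc1, 13 of the 24 were higher and 2 lower in the Holoclone than in the Paraclone (median 0.46 against 0.19), and 9 were higher and 3 lower under either scaling. The adaptor *GAB2* was at 1.77 and *SHOC2* at 1.14. The 2 lower genes were *MAP2K1*, which encodes MEK1, with −0.85 and *SHC1* with −1.12. In Panc89 2 were higher, among them *HRAS* with 1.44, and 2 were lower, among them *MAP2K1* with −0.35 (median −0.02 against 0.09). Under upper quartile and median-of-ratios scaling 3 and 4 were lower. In a fit of those libraries alone 2 were higher and 0 lower, with 3 at an unadjusted p under 0.05, and *MAP2K1* was not called (adjusted p = 0.0627).

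Of 16 tested receptors and ligands that feed the pathway, 7 were higher and 8 lower in parental Panc89 cells (median −0.33 against −0.18). The ligand *AREG* and the receptor *ERBB3* had log2 fold changes of 6.71 and 5.50, and the receptors *FGFR1* and *AXL* of −2.91 and −4.49. In Panc1, 7 were higher and 4 lower in the Holoclone (median 0.32 against 0.19), and 5 were higher and 4 lower under either scaling. The receptor *ERBB2* and the ligand *FGF2* were higher, with log2 fold changes of 1.63 and 1.28. The EGFR ligands *AREG* and *EREG* had log2 fold changes of −5.14 (adjusted p = 3.37e-07) and −5.58 (adjusted p = 1.04e-09) there. *EREG* had a mean of 58.6 TPM in the Panc1 Paraclone, against 2.62 TPM in parental and 0.223 TPM in Holoclone cells. In Panc89 its means were 76.1 TPM in parental, 77.4 TPM in Holoclone and 152 TPM in Paraclone cells. *AREG* in Panc89 was at 337, 344 and 311 TPM in parental cells. It was at 281, 857 and 1097 TPM in Holoclone and at 860, 524 and 584 TPM in Paraclone cells. The part of these ligands in the levels of the feedback genes was not tested. In Panc89 4 of the 16 were higher and 6 lower in the Holoclone (median −0.01 against 0.09), and 3 were higher and 3 lower in a fit of those libraries alone. *FGFR3* was at 2.67 and *MET* at 0.52, and *ERBB3* at −1.35 and *AXL* at −1.40. The *MET* call was lost under upper quartile (adjusted p = 0.0741) and median-of-ratios scaling (adjusted p = 0.127).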

How the data were processed

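The 18 libraries were assigned to line, cell variant and replicate from their labels. From different passages of the cultures the authors made strand-specific mRNA libraries, sequenced them from both ends, quantified them with kallisto 0.46.1 (GRCh38, per the submitters' processing notes) and summarised the output per gene as scaled TPM. The deposited table holds log2(TPM + 1) per gene symbol, and converted back they sum to 985339 to 988066 TPM per library. TPM keep no library total, so depth and counting error are unknown. A fold change on this scale understates that of genes near or under 1 TPM.

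Groups were compared with limma 3.58.1 in R 4.3.3 (limma-trend) in 1 model of the 6 group means over the 18 libraries, with 12 residual degrees of freedom. Genes entered with 1 TPM or more in 3 or more libraries (16093 of 40266), and two-sided p-values were adjusted by Benjamini-Hochberg over all of them in each of 10 comparisons, with a threshold of 0.05. Intervals are 95% confidence intervals of the difference, not adjusted for the number of genes. Ratios are of mean TPM. The 10 genes, the gene lists and the tests were chosen with earlier results of these data known. Apart from the 10 genes, up to 2 genes in each direction with the largest called changes were named from each list, where the higher group averaged 10 TPM or more, with the nearest gene by correlation. Libraries with the same replicate number within a line had correlations of their deviations from −0.318 to 0.190 (mean −0.0418, 18 pairs), so the numbers were not taken to pair them.

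Alternatives were a pseudocount of 0.1, no filter, the groups compared alone, a replicate block over all libraries or within a line, upper quartile and median-of-ratios scaling, an absolute log2 fold change over 1, and leaving out each library. On simulated data for Panc1 Holoclone against Paraclone cells, with 200 of 16093 genes changed, 60 of 89 genes changed by 1 and 108 of 111 changed by 2 (log2) were found, none in the wrong direction, with 9 false calls. The simulated spread was drawn independently for each gene, so it held no shift of many genes in the same library. Far fewer genes were changed than the 6006 called in the data, so error rates in the data can differ. Positions come from GENCODE 44, and promoter windows from RefSeq. Other data of the study were not analysed here, and some genes are not reported here.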

Additional observations from a re-analysis of the deposited data

Results flagged for a closer look

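The change of *DUSP4* between Holoclone and Paraclone cells differed between the lines by 2.92 on the log2 scale (limma interaction term, adjusted p = 2.02e-08). It was lower in the Holoclone in Panc1 and higher in Panc89, in all 3 libraries against all 3 in each line, although the Panc89 call was not stable to leaving out single libraries. For *SPRY1* the difference between the lines was 1.72 (adjusted p = 0.000609), with Panc89 Holoclone above Paraclone in every library and overlapping Panc1 clones.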

How the results depend on the processing

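No called difference of the 10 genes changed direction under these alternatives. Of 1420 values of single genes, 1280 kept direction and side of the threshold, 88 lost the call, 19 gained it and 33 changed sign, and all 33 were differences that were not called in the first place. With the replicate number as a block over all libraries, all 100 kept their side. With the replicate block within a line, 58 of 60 did, and *SPRED1* in Panc1 Holoclone (adjusted p = 0.0549) and *ETV5* in Panc89 Paraclone against parental cells (adjusted p = 0.0608) lost theirs.

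A required absolute log2 fold change over 1 left 5 genes in each comparison of the lines (parental, Holoclone, Paraclone), 3 between the Panc1 clones, 2 between the Panc89 clones, and 0, 2, 1 and 2 for Panc1 Holoclone, Panc1 Paraclone, Panc89 Holoclone and Panc89 Paraclone against parental cells. Over all genes, in the same order, it left 6020 of 10623, 5996 of 10583, 5271 of 9767, 1860 of 6006, 2124 of 5746, 516 of 1759, 1279 of 4599, 1369 of 3981 and 1184 of 3120, and for the interaction 3292 of 5655. In the groups alone 3377 genes differed between the Panc89 clones. Panc1 Holoclone against parental cells had 1 of the 10 genes called with the groups alone, the replicate block within the line, upper quartile and median-of-ratios scaling, against 2.

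With single libraries left out, Panc1 Holoclone against parental had 0 to 2 of the 10 genes and 1023 to 1527 of all genes called. Panc89 Holoclone against parental had 1 to 4 of the 10 and 2900 to 4231 of all. Panc89 Paraclone against parental had 2 to 4 of the 10 and 2055 to 4203 of all. The interaction had 2 to 4 of the 10 and 4752 to 5983 of all. The cause was not tested.

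Upper quartile and median-of-ratios scaling turned log2 fold changes of 4 uncalled differences, to −0.0025 and −0.035 for *PHLDA1* between the Panc89 clones, 0.14 and 0.19 for *SPRED1* and 0.13 and 0.19 for *ETV4* in Panc1 Paraclone against parental, and −0.068 and −0.064 for *SPRY1* in Panc89 Holoclone against parental. With single libraries left out, the same 4 and further uncalled differences spanned 0. These were −0.17 to 0.59 for *PHLDA1* between Paraclone cells of the lines, −0.44 to 0.15 for *SPRY4* between the Panc1 clones, and −0.36 to 0.63 for *DUSP5*, −0.27 to 0.038 for *DUSP6* and −0.28 to 0.48 for *PHLDA1* between the Panc89 clones. Against parental cells they were −0.16 to 0.48 for *DUSP5* and −0.031 to 0.29 for *ETV5* in Panc1 Holoclone, −0.41 to 0.48 for *DUSP6*, −0.13 to 0.067 for *SPRED1* and −0.18 to 0.054 for *ETV4* in Panc1 Paraclone, −0.030 to 0.30 for *DUSP4*, −0.26 to 0.33 for *SPRY1* and −0.21 to 0.16 for *SPRY4* in Panc89 Holoclone, and −0.10 to 0.89 for *DUSP5* in Panc89 Paraclone. The interaction spanned −0.49 to 0.12 for *SPRY4* and −0.088 to 0.21 for *ETV5*.

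Scaling shifted the median over all genes by over 0.1 in some comparisons, such as from 0.19 to 0.01 between the Panc1 clones under upper quartile scaling. With 1 clone per culture, clone and cell type cannot be told apart.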
